A study of Mus musculus with 4 samples.

Results

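Genes that repair DNA were examined in mouse embryonic fibroblasts exposed to etoposide, which holds topoisomerase II at the breaks it makes in DNA. A list of 39 genes was used, which covers double-strand break repair, the Fanconi anaemia pathway, mismatch repair, the damage checkpoint kinases and base excision repair. A gene was taken up where a probe set of the array carried its symbol and no other, and where a gene had several, the brightest by mean of the 4 arrays stood for it. This gave 37 of the 39 genes, out of 19938 genes named on the array. Rnf8 and Xrcc2 were not analysed here. Of the 37, 36 reached the brightness filter, a log2 signal of 5.87 on at least 1 array, which 10698 of all genes reached. The exception was Palb2, the partner that links BRCA1 to BRCA2, whose highest reading was 5.866 with the filter at 5.870.

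The cells were SV40 transformed fibroblasts on a C57BL/6 background, prepared from an embryo at E13.5, and all of them lacked BAX and BAK, the proteins that open the outer mitochondrial membrane in apoptosis. The 4 groups were p63 cells with etoposide, p63 cells with mock treatment, GFP cells with etoposide and GFP cells with mock treatment, where p63 and GFP name the gene carried by the retrovirus. Treatment lasted 6 h at a dose of 10, which the labels give per millilitre in one place and per microlitre in another (micrograms in both). Each group is 1 array of total RNA, the labels name no more than 1 transduced culture per virus, called a line here, and no source used here gives the species or isoform of the p63 construct.

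Breaks in both strands of DNA are rejoined directly by non-homologous end joining or copied from the sister chromatid by homologous recombination, which operates in S and G2 phase. The MRE11-RAD50-NBN complex binds the ends and activates the kinase ATM, while ATR responds to single-stranded DNA, and the Fanconi anaemia proteins unhook crosslinks between strands. Mismatch repair corrects replication errors. Etoposide leaves breaks with topoisomerase II bound to their ends. SV40 large T antigen inactivates p53 and the retinoblastoma protein by binding them, so the usual brakes on E2F transcription factors, which drive many repair genes at the entry to S phase, are altered.

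Values are log2 RMA signals, the unit deposited, and a difference of 1 means 2-fold. Groups of 1 array have no replicate spread, so nothing was tested, and the word called marks a difference of at least 1 in size. As a check of the labels, Trp63 read 9.29 and 8.75 on the arrays of etoposide- and mock-treated p63 cells, against 5.59 and 4.87 on those of GFP cells. Mdm2, a p53 target that restrains p53, was higher with etoposide by 2.59 in p63 cells and by 2.40 in GFP cells. The activity of p53 in these cells was not tested. Of 12 fibroblast markers 8 reached the filter on every array, while Thy1, Pdgfra, Dcn and Fap did not. Of 8 epithelial markers 3 reached it in p63 cells (Krt5, Krt14 and Krt8) and 1 in GFP cells (Krt8), and endothelial markers stayed below it on all arrays. Of 5 haematopoietic markers, only Cd68 reached it, and it did so on 3 arrays. The summed log2 signal of the epithelial markers was 50.1 and 51.1 in etoposide- and mock-treated p63 cells, against 41.5 and 39.8 in GFP cells, and the part of these markers in the results was not tested. The arrays differed in how many genes stood apart on them. A gene was read as apart on 1 array where it was 1 or more away from the other 3 and these spanned at most 0.5. Of the 10698 genes kept, 2 were apart on the array of etoposide-treated p63 cells and 78 on that of mock-treated p63 cells. In GFP cells 1 was apart on the etoposide array and 22 on the mock array. With 1 array per group, a feature of an array and one of its group cannot be told apart. The range over the arrays reached 1 in 1 of the 36 repair genes (2.78%), Msh6, against 17.2% of all genes.

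**Figure D1:**
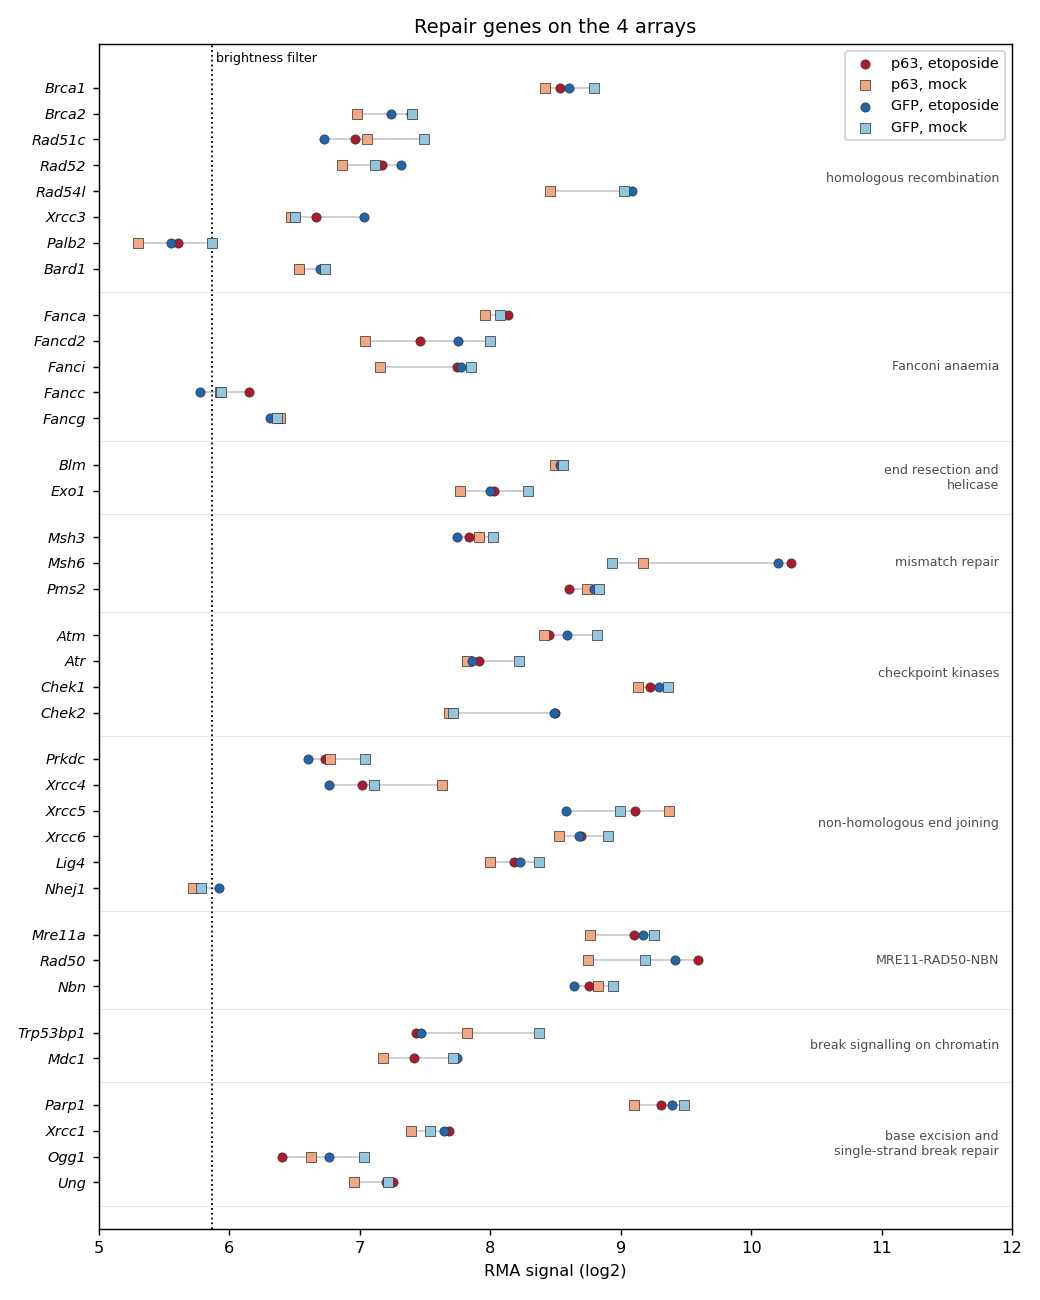
Log2 RMA signal (horizontal axis) of the 37 repair genes on each of the 4 arrays, 1 point per array, grouped by pathway, with the brightness filter of 5.87 as a dotted line. Msh6 is the only gene whose arrays span more than 1, from 8.93 to 10.31, and levels of different genes cannot be compared on this scale.

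The first comparison asks how transcripts of repair genes respond to etoposide in each line. Msh6 (probe set 10447417) was called higher in both lines, and it was the only one of 36 genes called in either line. Msh6 encodes a subunit of the heterodimer that recognises single-base mismatches. The others stayed within 2-fold, and 34 of the 36 read above the filter on every array. The share of all 10698 genes called higher was 6.28% in p63 cells and 3.52% in GFP cells, and the share called lower was 1.33% and 2.12%. In both lines together 2.57% of all genes were called higher and 0.608% lower, beside 1 and 0 of the 36 repair genes (2.78% and 0.00%). The repair list thus held about the share of genes higher in both lines that all genes did.

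Msh6 read 10.31 in etoposide-treated against 9.17 in mock-treated p63 cells. In GFP cells it read 10.21 with etoposide against 8.93 with mock treatment. Etoposide readings of Msh6 thus lay above mock readings in every pairing of arrays. The differences were 1.14 in p63 cells (2.20-fold) and 1.28 in GFP cells (2.42-fold). Of all genes kept, 4.24% had a larger difference in p63 cells and 2.06% in GFP cells. With arrays centred on the median of the genes kept, an alternative added after the data were seen, Msh6 stood at 0.94 in p63 cells and 1.37 in GFP cells and was no longer called in p63 cells. The other mismatch repair genes did not share this difference. Msh3, which replaces MSH6 in the heterodimer that recognises larger loops, read 7.83 and 7.91 in etoposide- and mock-treated p63 cells and 7.74 and 8.02 in GFP cells. Its differences were -0.08 in p63 cells and -0.28 in GFP cells. Pms2, a subunit of the endonuclease that acts after recognition, differed by -0.14 and -0.04.

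Among the checkpoint kinases, Chek2 stood apart from its partners. CHK2 is the kinase that ATM phosphorylates after a double-strand break. Its gene (probe set 10524266) read 8.50 in etoposide-treated against 7.68 in mock-treated p63 cells, and 8.49 against 7.72 in GFP cells. The difference was 0.81 in p63 cells and 0.77 in GFP cells, a 1.76-fold and a 1.71-fold change, and the etoposide arrays lay within 0.01 of each other. This missed the 2-fold threshold and passed one of 1.5-fold. At 1.5-fold, 4 of the 36 genes were higher in p63 cells (Msh6, Chek2, Rad50 and Fanci) and 1 was lower (Xrcc4), beside 16.5% and 5.5% of all genes. In GFP cells 2 were higher (Msh6 and Chek2) and 2 lower (Trp53bp1 and Rad51c), beside 9.28% and 9.48%. In both lines 2 were higher, Msh6 and Chek2, and 0 lower, beside 6.71% and 2.51%. Some of these 1.5-fold calls depend on the scaling. In p63 cells Fanci stood at 0.50 after cyclic loess and 0.39 with arrays centred on the genes kept, where Trp53bp1 stood at -0.59 and so was lower in both lines. Centring on all probe sets put Xrcc4 at -0.54 and Rad54l at 0.66 in p63 cells. In GFP cells the only such change was Xrcc3, at 0.63 with arrays centred on the genes kept. Atm differed by 0.04 in p63 cells and -0.23 in GFP cells, and Chek1, the kinase downstream of ATR, by 0.09 and -0.07. Atr, the lowest of the 4 by mean difference, read 7.91 and 7.82 in etoposide- and mock-treated p63 cells and 7.86 and 8.22 in GFP cells.

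In the complex that binds broken ends, Rad50, the ATPase that tethers the ends, read 9.59 in etoposide-treated against 8.75 in mock-treated p63 cells, and 9.42 against 9.19 in GFP cells. The difference was 0.84 in p63 cells and 0.23 in GFP cells, so both etoposide arrays were above both mock arrays but by unequal amounts. With the mock-treated p63 array left out, only the value in GFP cells remains. Nbn, the subunit that brings ATM to the complex, read 8.76 and 8.82 in etoposide- and mock-treated p63 cells and 8.64 and 8.94 in GFP cells. Mre11a, the nuclease, differed by 0.34 and -0.08 in p63 and GFP cells.

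Break signalling on chromatin held the lowest etoposide difference of the whole list in GFP cells, that of Trp53bp1. In p63 cells the lowest was that of Xrcc4 (-0.62), an end joining gene. Trp53bp1 (probe set 10486722) encodes 53BP1, which shields broken ends from resection and favours end joining. It read 7.43 in etoposide-treated against 7.82 in mock-treated p63 cells, and 7.47 against 8.38 in GFP cells. The differences were -0.40 and -0.91, or 1.32-fold and 1.87-fold lower with etoposide, and both etoposide arrays lay below both mock arrays. Mdc1, the adaptor that reads phosphorylated histone H2AX, read 7.42 and 7.17 in etoposide- and mock-treated p63 cells and 7.74 and 7.72 in GFP cells. Its differences were 0.24 and 0.02.

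The end joining genes leaned lower in GFP cells, with a median of -0.28 over 6 genes there and of -0.01 in p63 cells. For all genes kept the medians were -0.08 in GFP cells and 0.10 in p63 cells. Xrcc4, the scaffold of DNA ligase IV, read 7.02 in etoposide-treated against 7.63 in mock-treated p63 cells, and 6.76 against 7.11 in GFP cells. Its differences were -0.62 and -0.34. Xrcc5, which encodes the larger Ku subunit, differed by -0.26 in p63 cells and -0.42 in GFP cells, and Xrcc6, the smaller Ku subunit, by 0.16 and -0.22. Prkdc, the catalytic subunit of DNA-dependent protein kinase, stood at -0.04 and -0.44, and Lig4 at 0.18 and -0.14. Nhej1, whose product aids ligation, had the highest mean difference of the group, but it was dim. It read 5.74 and 5.72 in etoposide- and mock-treated p63 cells and 5.92 and 5.78 in GFP cells, and passed the filter only through the array of etoposide-treated GFP cells.

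Of the 7 homologous recombination genes kept, none was called in either line. Xrcc3, one of the paralogues that load the recombinase, read 6.66 and 6.48 in etoposide- and mock-treated p63 cells and 7.03 and 6.50 in GFP cells, a difference of 0.19 and 0.53. Another paralogue went the other way. Rad51c read 6.96 in etoposide-treated against 7.05 in mock-treated p63 cells, and 6.73 against 7.49 in GFP cells, a difference of -0.09 and -0.77. Rad54l, a motor protein that acts with the recombinase on chromatin, differed by 0.58 in p63 cells and 0.06 in GFP cells. Brca1 stood at 0.12 and -0.19 and its partner Bard1 at 0.01 and -0.04. Brca2, which delivers the recombinase to single-stranded DNA, stood at 0.42 and -0.17, and Rad52 at 0.31 and 0.20. Palb2, below the filter, read 5.61 and 5.30 in etoposide- and mock-treated p63 cells and 5.55 and 5.87 in GFP cells.

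The 5 Fanconi anaemia genes kept had a median difference of 0.22 in p63 cells and -0.08 in GFP cells, and none was called. Fanci, a member of the pair that is ubiquitinated when the pathway is switched on, read 7.74 in etoposide-treated against 7.16 in mock-treated p63 cells, and 7.77 against 7.85 in GFP cells. Its reading in mock-treated p63 cells was below the other 3, which lay close together, and this gave differences of 0.59 and -0.08. Its partner Fancd2 stood at 0.42 and -0.25. Of the core complex that carries out the ubiquitination, Fanca stood at 0.17 and 0.00, Fancc at 0.22 and -0.16, and Fancg at -0.02 and -0.05. Fancg read 6.37 and 6.39 in etoposide- and mock-treated p63 cells and 6.31 and 6.36 in GFP cells. Blm, the helicase mutated in Bloom syndrome, had the narrowest range of all 37 genes, at 8.52 and 8.50 in p63 cells and 8.54 and 8.56 in GFP cells. Exo1, a nuclease of resection and of mismatch repair, read 8.03 and 7.77 in etoposide- and mock-treated p63 cells and 7.998 and 8.29 in GFP cells, a difference of 0.26 and -0.29.

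The 4 base excision and single-strand break repair genes of the list stayed within 1.5-fold in both lines. Of all genes, 16.5% were higher and 5.5% lower by this measure in p63 cells, and 9.28% and 9.48% in GFP cells. Genes of this pathway outside the list did pass it, such as Mbd4 in both lines and Mpg in p63 cells. Xrcc1, the scaffold of single-strand break repair, read 7.68 and 7.39 in etoposide- and mock-treated p63 cells and 7.65 and 7.54 in GFP cells. Ogg1, the glycosylase for oxidised guanine, read 6.41 and 6.63 in etoposide- and mock-treated p63 cells and 6.76 and 7.03 in GFP cells, a difference of -0.22 and -0.27. Parp1, which senses breaks and makes poly(ADP-ribose), stood at 0.21 and -0.09, and Ung, the uracil glycosylase, at 0.30 and -0.02.

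**Figure D2:**
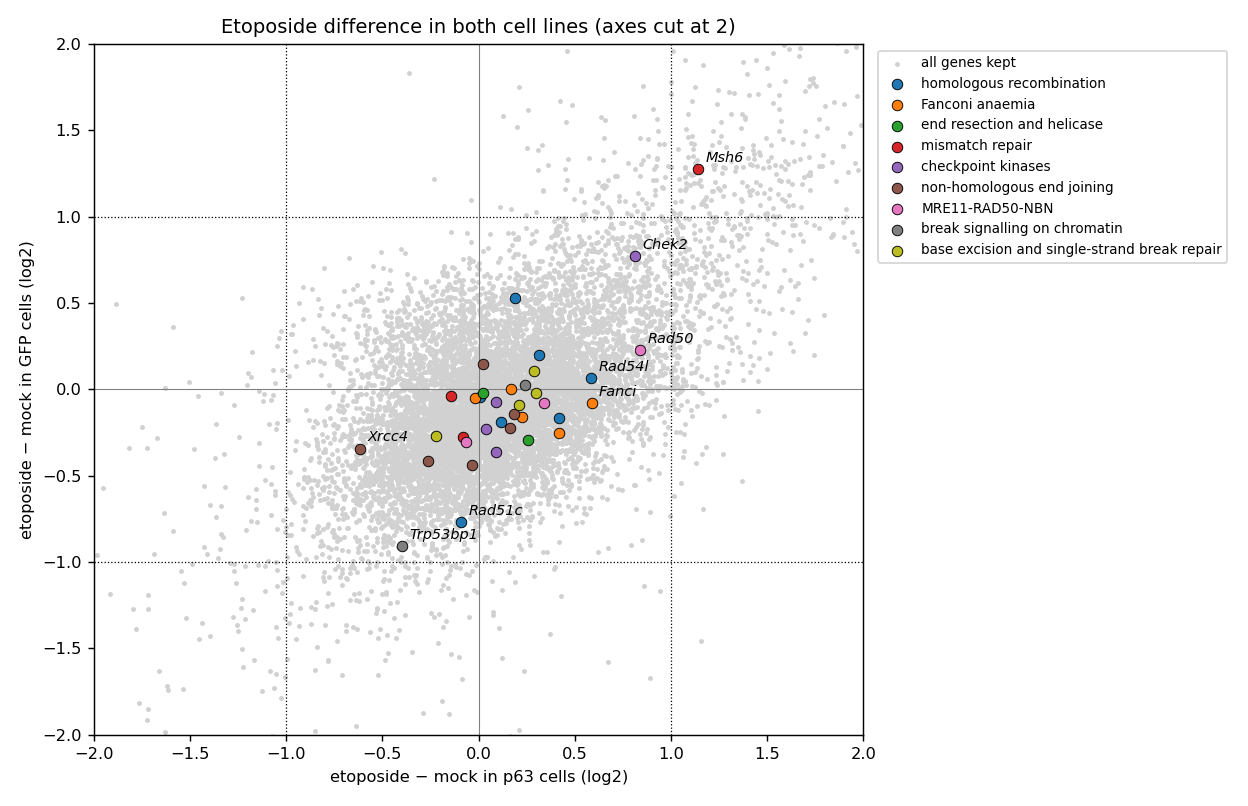
Etoposide minus mock (log2) in p63 cells (horizontal axis) and in GFP cells (vertical axis) for the 36 repair genes kept, coloured by pathway, over all 10698 genes kept in grey, with dotted lines at a difference of 1. Msh6 is the only repair gene beyond 1, with Chek2 next to it at 0.81 and 0.77 and Trp53bp1 lowest in GFP cells at -0.91.

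Over the 36 genes the median etoposide difference was 0.17 in p63 cells and -0.08 in GFP cells, beside 0.10 and -0.08 for all genes kept. The median of the list minus that of all genes was 0.07 in p63 cells and -0.0019 in GFP cells. It was 0.20 and -0.13 with no filter on dim genes, where all genes were 19938, and 0.035 and -0.011 after cyclic loess. The lines share no array in this comparison, and across the 36 genes Pearson's r between their differences was 0.74 and Spearman's rho 0.61. For all genes kept these were 0.63 and 0.52, and without Msh6 they were 0.64 and 0.58 over 35 genes. Genes are not independent replicates, and all points share the same 4 arrays. In 10 genes both differences were above 0, in 10 both were below 0, in 16 the difference was above 0 in p63 cells and below 0 in GFP cells, and in 0 the reverse. These are 27.8%, 27.8%, 44.4% and 0.00% of the list, against 31.8%, 31.1%, 27.7% and 9.38% of all genes. With arrays centred on the genes kept, 4 of 36 (11.1%) were above 0 in p63 cells and below 0 in GFP cells, against 11.3% of all genes, so this split of signs depends on the scaling.

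Promoters are shown for the 3 highest and the 3 lowest genes by mean etoposide difference that have an entry in the RefSeq table (GRCm38.p6), so that the sequences at both ends of the response can be set beside each other. The 250 bases before the annotated start are printed 5′ to 3′ on the gene's strand, and capitals mark a match to any of the motifs described after them.
Msh6 promoter (chr17:87974800-87975049, + strand): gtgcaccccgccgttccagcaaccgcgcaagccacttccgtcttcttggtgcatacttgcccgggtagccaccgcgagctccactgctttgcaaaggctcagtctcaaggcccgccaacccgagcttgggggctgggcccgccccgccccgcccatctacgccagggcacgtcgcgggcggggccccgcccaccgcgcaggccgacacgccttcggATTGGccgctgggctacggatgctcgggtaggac
Chek2 promoter (chr5:110839733-110839982, + strand): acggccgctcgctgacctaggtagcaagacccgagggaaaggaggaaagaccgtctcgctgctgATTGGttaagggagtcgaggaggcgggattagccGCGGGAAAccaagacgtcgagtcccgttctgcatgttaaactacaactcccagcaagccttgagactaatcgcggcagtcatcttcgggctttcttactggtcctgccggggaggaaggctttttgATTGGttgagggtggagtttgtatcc
Xrcc3 promoter (chr12:111813880-111814129, - strand): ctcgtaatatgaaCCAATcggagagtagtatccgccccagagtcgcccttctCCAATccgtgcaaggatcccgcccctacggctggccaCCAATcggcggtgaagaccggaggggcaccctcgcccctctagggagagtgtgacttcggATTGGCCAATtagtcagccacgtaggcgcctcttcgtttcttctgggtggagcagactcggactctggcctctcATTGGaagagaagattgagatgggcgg
Rad51c promoter (chr11:87404507-87404756, - strand): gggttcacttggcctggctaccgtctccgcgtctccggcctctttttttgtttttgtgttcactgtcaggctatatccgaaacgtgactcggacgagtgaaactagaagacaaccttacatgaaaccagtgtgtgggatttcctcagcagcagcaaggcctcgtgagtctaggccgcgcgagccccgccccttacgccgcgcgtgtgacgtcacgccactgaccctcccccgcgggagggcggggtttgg
Xrcc4 promoter (chr13:90089609-90089858, - strand): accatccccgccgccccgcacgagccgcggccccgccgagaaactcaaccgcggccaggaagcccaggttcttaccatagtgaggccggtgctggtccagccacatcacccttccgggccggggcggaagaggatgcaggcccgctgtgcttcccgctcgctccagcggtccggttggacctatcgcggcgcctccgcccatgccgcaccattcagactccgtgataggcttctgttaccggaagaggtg
Trp53bp1 promoter (chr2:121271408-121271657, - strand): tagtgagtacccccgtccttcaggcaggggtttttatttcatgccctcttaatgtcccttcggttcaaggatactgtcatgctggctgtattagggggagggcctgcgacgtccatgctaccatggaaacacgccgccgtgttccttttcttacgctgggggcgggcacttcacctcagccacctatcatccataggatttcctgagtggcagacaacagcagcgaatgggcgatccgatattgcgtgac

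The motifs were searched on both strands in the 300 bases from 250 before to 50 after the start. They were the E2F site (TTTCCCGC, TTTGGCGC, TTTCGCGC or TTTGCCGC), the CHR element of late cell cycle genes (TTTGAA), the CCAAT box (CCAAT) and the p53 half-site. Each motif was searched separately, so matches of different motifs could overlap, and none of those in the printed promoters did. Xrcc3 held 6 CCAAT boxes. The first window listed was used for a gene with several, which among the genes printed applies to Rad51c. Of the 37 genes 32 had an entry, and Fancd2, Exo1, Prkdc, Rad50 and Nbn had none. An E2F site stood in 9 of these 32 windows (28.1%), against 4.46% of the 8602 genes kept that have a window and 2.32% of all 27025 windows. The 9 genes were Brca2, Rad51c, Bard1, Fancg, Msh3, Msh6, Chek2, Xrcc6 and Mdc1. The CHR element stood in 1 of 32 (3.12%, in Bard1) against 11.4% of the genes kept and 18.1% of all windows. A CCAAT box stood in 17 (53.1%) against 38.8% and 37.9%, and a p53 half-site in 2 (6.25%, in Fanca and Fancg) against 7.01% and 8.37%.

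In the Chek2 promoter an E2F site began 152 bases before the start, and in Msh6 one (TTTCCCGC) began 15 bases after it, outside the printed stretch. Rad51c, which was lower in GFP cells, also held one (TTTCGCGC), 11 bases after the start. The windows of Xrcc4 and Trp53bp1 held none of the 4 motifs. Over the genes kept, the 9 with an E2F site had median etoposide differences of 0.16 in p63 cells and -0.05 in GFP cells, and the 22 without one had 0.14 and -0.08. A match describes the letters of the window and shows no binding.

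**Figure D3:**
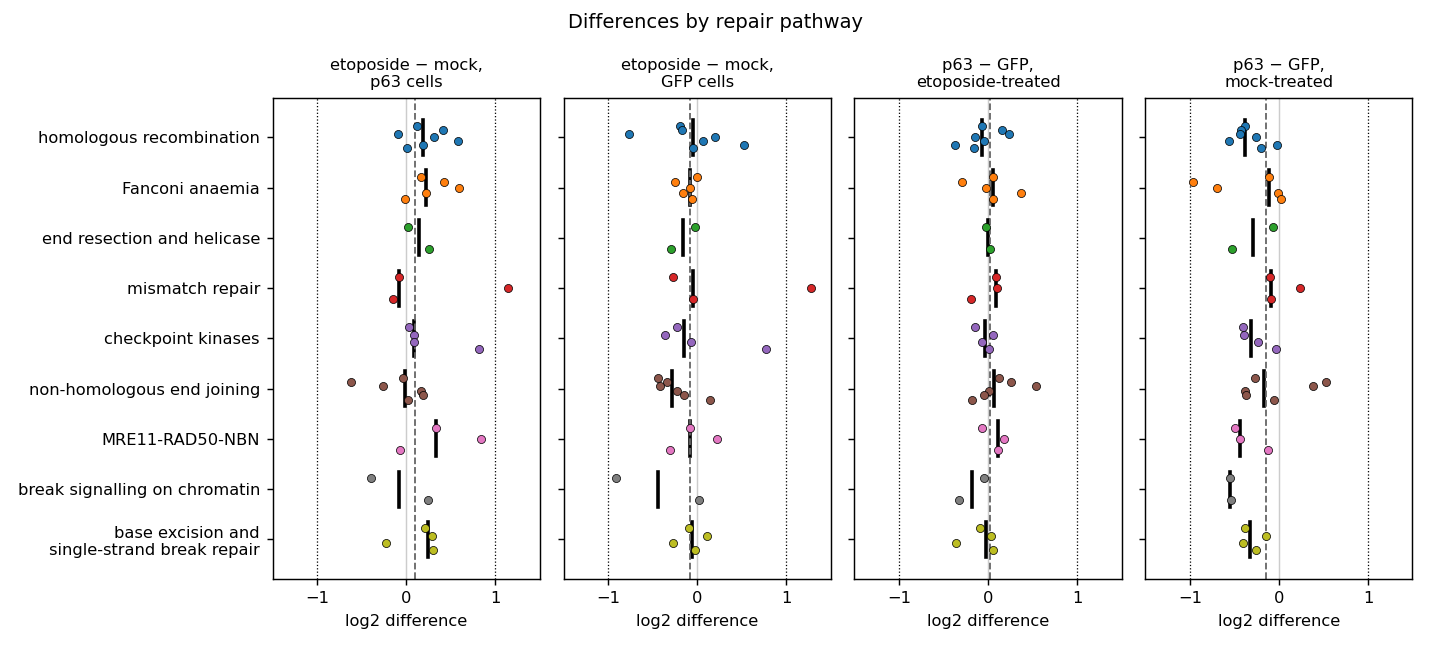
Log2 differences (horizontal axes) of the 36 repair genes kept, by pathway, in the 4 comparisons, with 1 point per gene, a black bar at each pathway's median, a dashed line at the median of all genes kept and dotted lines at 1 and -1. In the comparison of p63 with GFP in mock-treated cells 8 of the 9 pathway medians lie at or below -0.10, and in etoposide-treated cells all lie between -0.18 and 0.12.

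The second comparison asks what p63 alters among these genes. None of the 36 genes was called higher or lower with p63 under either treatment. Of all genes kept, 1.38% were called higher and 0.514% lower in etoposide-treated cells, and 2.42% higher and 3.76% lower in mock-treated cells. Under both treatments 0.925% of all genes were called higher and 0.486% lower. A count of 0 of 36 is near these shares. At 1.5-fold, 0 genes were higher and 0 lower in etoposide-treated cells, beside 4.91% and 1.87% of all genes, and in mock-treated cells 0 were higher and 2 lower (Fancd2 and Fanci), beside 6.74% and 16.1%. Fanci was short of 1.5-fold after cyclic loess (-0.54) and with arrays centred on the genes kept (-0.48), where Xrcc4 was past it at 0.64 and 0.74 and Xrcc5 at 0.59 under both. Under centring on all probe sets, Rad54l (-0.69), Trp53bp1 (-0.68), Mdc1 (-0.67), Exo1 (-0.65) and Mre11a (-0.62) were past it too. Each virus is 1 line, so p63 and any other feature of the lines cannot be told apart.

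In etoposide-treated cells the lines were close. The differences between p63 and GFP ran from -0.37 to 0.53, with a median of -0.0041 beside 0.02 for all genes, and 28 of 36 genes (77.8%) lay within 0.2 of 0, against 56.7% of all genes. Xrcc5 had the highest value, at 9.11 in p63 against 8.58 in GFP cells, a difference of 0.53. It also stood above GFP in mock-treated cells, at 9.37 against 8.99, a difference of 0.38. Xrcc3 and Ogg1 were the lowest, at -0.37 and -0.36. Msh6, Chek2 and Rad50, the highest with etoposide, stood at 0.10, 0.01 and 0.18, and Fancc at 0.37. Rad51c differed by 0.23, Xrcc4 by 0.26, Nhej1 by -0.18 and Mdc1 by -0.32. Differences near 0 included those of Atr (0.06), Fancg (0.06), Trp53bp1 (-0.04), Exo1 (0.03), Xrcc1 (0.03) and Blm (-0.02), while Nbn stood at 0.12 and Msh3 at 0.09.

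In mock-treated cells the median was -0.27, beside -0.14 for all genes, and 32 of 36 genes (88.9%) were below 0, against 63.9% of all genes. This count was 24 (66.7%, against 52.7%) after cyclic loess, 21 (58.3%, against 43.6%) with arrays centred on the genes kept and 33 (91.7%, against 73.1%) with arrays centred on all probe sets. The 4 above 0 were Xrcc4 (0.53), Xrcc5, Msh6 (0.24) and Fancg (0.03). The lowest were the ubiquitinated Fanconi pair. Fancd2 (probe set 10540738), named here because it came closest to the threshold, read 7.04 in mock-treated p63 against 8.001 in mock-treated GFP cells, a difference of -0.96 (1.95-fold lower). In etoposide-treated cells it read 7.46 in p63 against 7.75 in GFP cells. With arrays centred on the median of all probe sets its difference in mock-treated cells was -1.09, past the threshold, and with arrays centred on the genes kept it was -0.75. Fanci differed by -0.03 in etoposide-treated cells and by -0.70 in mock-treated cells. Further values in mock-treated cells were -0.56 for Rad54l, -0.55 for Trp53bp1, -0.54 for Mdc1 and -0.52 for Exo1. Rad50 and Rad51c each stood at -0.44, Ogg1 at -0.41 and Atr at -0.39. Nearer to 0 were Xrcc1 (-0.15), Nbn (-0.12), Msh3 (-0.10), Blm and Nhej1 (-0.06 each), Chek2 (-0.03) and Xrcc3 (-0.03).

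The size of this shift depends on the scaling of the arrays. The median over the 36 genes in mock-treated cells was -0.40 with arrays centred on all probe sets, -0.16 after cyclic loess and -0.055 with arrays centred on the genes kept. The median of all genes moved with it. Relative to that median the repair genes stood at -0.13 with the deposited scaling and at -0.13 after cyclic loess. Centring moves every gene of an array by the same amount, so it cannot change this value. It was -0.18 with the stricter filter and -0.30 with no filter. On the array of mock-treated p63 cells, 24 of the 36 genes (66.7%) had their lowest reading, against 40.4% of all genes, and on that of mock-treated GFP cells 21 (58.3%) had their highest, against 38.4%. The array of etoposide-treated p63 cells held the lowest reading of 3 genes and the highest of 7, beside 16.6% and 24.4% of all genes. That of etoposide-treated GFP cells held the lowest of 8 and the highest of 5, beside 24.6% and 17.8%. Mock-treated p63 cells had the highest reading of 3 genes (19.4% of all genes) and mock-treated GFP cells the lowest of 1 (18.4%). With arrays centred on the genes kept, 11 genes (30.6%) read lowest in mock-treated p63 cells and 11 (30.6%) highest in mock-treated GFP cells, against 24.2% and 24.9% of all genes. The comparisons of etoposide in p63 cells and of p63 in mock-treated cells share the array of mock-treated p63 cells, and the part this array has in the values was not tested.

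**Figure D4:**
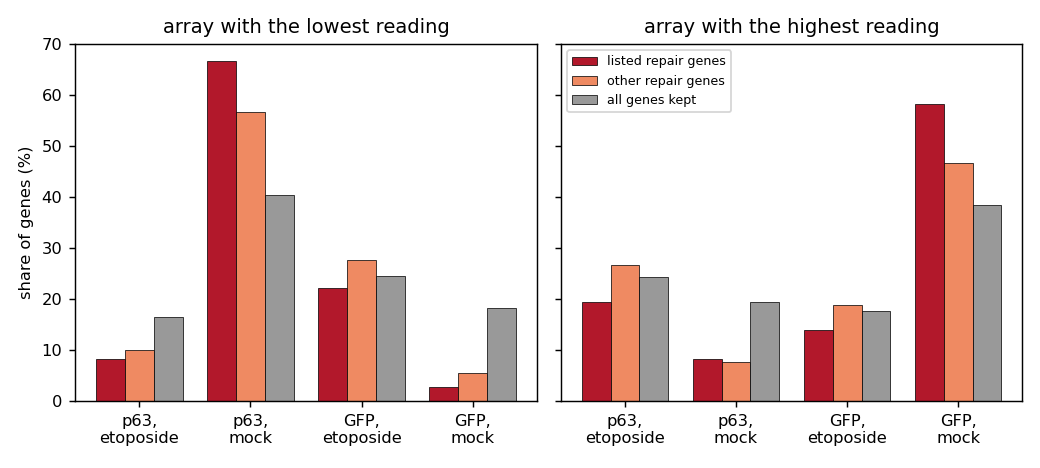
Share of genes (vertical axis, %) whose lowest reading (left) or highest reading (right) fell on each of the 4 arrays, for the 36 listed repair genes, 90 other repair genes and all 10698 genes kept. The array of mock-treated p63 cells held the lowest reading of 66.7% of the listed genes and 40.4% of all genes, with the deposited scaling.

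The etoposide difference was higher in p63 cells than in GFP cells for 31 of 36 genes (86.1%), against 69.3% of all genes, and for 17 (47.2%) against 40.2% with arrays centred on the genes kept. The gap between the lines reached 1 in size for 0 of the 36 genes, against 3.94% of all genes. As p63 minus GFP cells, it ran from -0.34 for Xrcc3 to 0.67 for Rad51c, with a median of 0.25 beside 0.20 for all genes. Over all genes its size was under 0.94 for 95% of them. Rad51c, Fancd2, Fanci and Rad50 were the 4 genes above 0.60.

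Other genes of the same pathways were read from a further list of 106, of which 97 were found and 90 kept. None was called in both lines after etoposide. In p63 cells 3 (3.33%) were called higher and 0 lower, and in GFP cells 0 higher and 1 (1.11%) lower, below the shares for all genes given above. Ercc1, the partner in the endonuclease that cuts at crosslinks, read 9.01 in etoposide-treated against 7.73 in mock-treated p63 cells, and 8.90 against 8.60 in GFP cells, a difference of 1.29 and 0.30. Rfc3, a subunit of the clamp loader, differed by 1.02 and 0.31, and Cdc25a, a phosphatase that CHK1 and CHK2 restrain, by 1.08 and 0.03. All 3 read lowest on the mock-treated p63 array. Faap24, a DNA-binding partner of the core complex, stood at -0.12 in p63 cells and at -1.03 in GFP cells.

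Further genes differed in 1 direction in both lines without reaching the threshold. Wee1, the kinase that inhibits CDK1, differed by -0.61 in p63 cells and -0.98 in GFP cells. H2ax, the histone variant phosphorylated at breaks, stood at -0.55 and -0.90, the same direction as Trp53bp1. Mbd4, a thymine glycosylase, stood at 0.64 and 0.80, and Mpg, the glycosylase for alkylated bases, at 0.90 and 0.48. With p63 none of the 90 was called under either treatment. Hus1 stood at -0.50 in etoposide-treated and -0.99 in mock-treated cells, Cdc25a at 0.06 and -0.99, and Faap24 at -0.07 and -0.98. HUS1 and RAD9A belong to the ring-shaped clamp that helps activate ATR, and Rad9a stood at -0.40 with etoposide and -0.55 with mock treatment. Wrn, the helicase mutated in Werner syndrome, was at 0.38 and 0.76, and H2ax at -0.44 and -0.79.

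Many repair genes are transcribed in S phase, so cell cycle genes were read beside them. Over 29 S phase genes the median etoposide difference was 0.40 in p63 cells and 0.17 in GFP cells, with 4 (13.8%) and 2 (6.9%) called higher, beside 6.28% and 3.52% of all genes, and 0 lower in either line. Over 27 G2/M genes it was -0.68 and -0.84, with 8 (29.6%) and 10 (37.0%) called lower, beside 1.33% and 2.12% of all genes, and 0 higher. The repair genes (0.17 and -0.08) and the 90 other repair genes (0.23 and -0.09) lay between them. All genes kept (0.10 and -0.08) did so too, so this position is not particular to repair genes. For p63 minus GFP, the S phase genes had a median of -0.05 with etoposide and -0.27 with mock treatment, and the G2/M genes had -0.27 and -0.42. The 90 other repair genes had 0.04 and -0.29. In mock-treated cells 86.7% of the other repair, 89.7% of the S phase and 85.2% of the G2/M genes were below 0. The etoposide difference was higher in p63 than in GFP cells for 84.4%, 79.3% and 77.8% of them. Within 0.2 of 0 in etoposide-treated cells were 73.3%, 75.9% and 25.9%. The listed genes had 88.9%, 86.1% and 77.8%, so these shares are not particular to them. In bulk samples a different share of cells in a phase and a different level per cell cannot be told apart, and the part of cell cycle phase in the repair values was not tested.

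**Figure D5:**
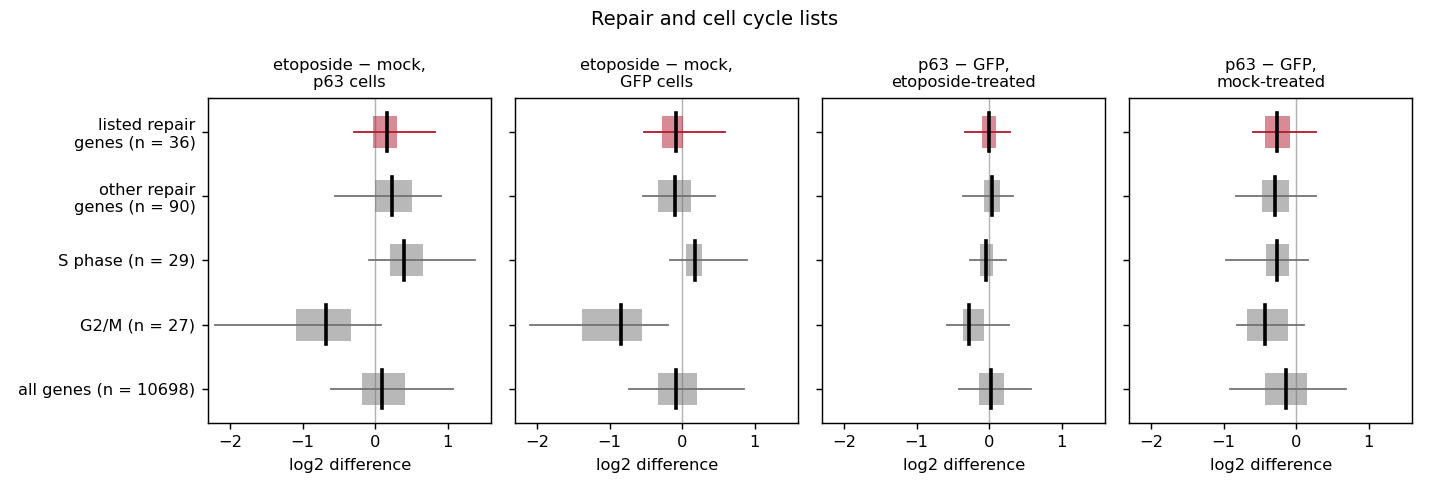
Log2 differences (horizontal axes) in the 4 comparisons for the 36 repair genes, 90 other repair genes, 29 S phase genes, 27 G2/M genes and all 10698 genes kept, with a black bar at the median, a box from the 25th to the 75th percentile and a line from the 5th to the 95th percentile. The etoposide medians of the repair genes, 0.17 in p63 and -0.08 in GFP cells, lie between those of S phase genes (0.40 and 0.17) and G2/M genes (-0.68 and -0.84). Those of all genes kept (0.10 and -0.08) also do.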

How the data were processed

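Each sample is 1 Affymetrix Mouse Gene 1.0 ST array of amplified, biotin-labelled RNA, per the labels' protocols and the design text. The authors deposited log2 signals from RMA (Affymetrix Expression Console), according to the submitters' processing notes, which give no version. RMA is meant to make intensity distributions equal between arrays, but the deposited signals still differed in spread and median. Their standard deviation over all probe sets was 2.28 in mock-treated and 2.38 in etoposide-treated p63 cells. In GFP cells it was 2.39 with mock treatment and 2.37 with etoposide. The median over all probe sets was 5.59 and 5.51 in mock- and etoposide-treated p63 cells, and 5.46 and 5.52 in GFP cells. Over the genes kept it was 7.48 and 7.68, and 7.69 and 7.60. A shift shared by many genes may be partly removed, and how much was not tested. That the log base is 2 was inferred from the values (1.27 to 14.4). Precision is limited by the number of arrays.

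Of 35512 probe sets, 21789 carried 1 symbol in the 2016 annotation, and 21698 of these were found in RefSeq by Entrez identifier. The filter is the 50th percentile of their values. An additive model would have 1 residual degree of freedom and take an interaction for noise, and was not fitted. Values on every array are given for genes called in any comparison and for the highest and lowest gene of each pathway by mean etoposide difference. Other pathway genes are named where called in both comparisons of a pair, otherwise the 6 with the largest mean difference. Fancd2 and Palb2 were added after their values were seen, and Xrcc5 is also given on every array outside this rule. The members and lists were chosen with earlier results of these data known.

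The alternatives were the filter (none, or 7.82, the 75th percentile), the threshold (1.5-fold), a gene's probe sets (their median), dim readings raised to the filter, and 3 scalings: centring on all probe sets, centring on the genes kept, and cyclic loess (limma 3.58.1, R 4.3.3). Calls were made in Python 3.11.15 with pandas 2.3.3. The code was run on simulated data with little noise and differences set above the threshold. This checks the code and not how reliable calls from single arrays are.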

Additional observations from a re-analysis of the deposited data

How the results depend on the processing

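Of 108 counts and medians over the repair genes recomputed under the alternatives, 94 moved by no more than 0.1 (medians) or 1.5 times (counts). With a 1.5-fold threshold, 4 genes were higher and 1 lower with etoposide in p63 cells, 2 were higher and 2 lower in GFP cells, 2 were called in both lines, and 2 were lower with p63 in mock-treated cells. This follows from the lower threshold. With arrays centred on the genes kept, which was chosen after seeing the data, 0 genes were higher with etoposide in p63 cells and 0 in both lines, since Msh6 stood at 0.94, and the median in p63 cells was -0.029. Under that centring the median for p63 minus GFP in mock-treated cells was -0.055. That median was -0.38 with the stricter filter, -0.40 with arrays centred on all probe sets, where 1 gene, Fancd2, was called lower, and -0.16 after cyclic loess. Of 360 recomputed differences of the 18 genes that the rule gives on every array, 276 moved by no more than 0.1. Another 83 moved further without crossing 1, 1 (Msh6) was below it and 0 changed sign while called. Fancd2, Palb2 and Xrcc5 are not among the 18. Of the 276, 70 came from the median of probe sets and 71 from raising dim readings, each out of 72. These settings touch few of the 18 genes and could move little. With centring on all probe sets 54 of 72 stayed within 0.1. This was 45 after cyclic loess and 36 with centring on the genes kept. Centring on all probe sets and on the genes kept moved the array of mock-treated p63 cells in opposite directions. Without that array, the etoposide comparison in GFP cells (1 gene higher) and the p63 comparison in etoposide-treated cells (0 genes) remain. No paired analysis was possible because the labels give no replicate numbers to block on and every result is a difference of 2 arrays with no test. Signal near background limits Palb2, Nhej1 and Fancc.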

Other observations

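Among the other repair genes, the checkpoint genes, which include the clamp, its loader and the mediators of ATR signalling, had a median etoposide difference of 0.46 in p63 cells and 0.04 in GFP cells over 12 genes. The further Fanconi anaemia genes had 0.30 and -0.04 over 16, the further mismatch repair genes with the clamp loader and ligase 0.39 and -0.03 over 9, and the further homologous recombination genes 0.14 and -0.13 over 25. Genes of break signalling on chromatin had -0.04 and -0.20 over 12, and base excision repair genes 0.06 and -0.18 over 12. The further non-homologous end joining genes had 0.09 and -0.19 over 4. For all genes kept the medians were 0.10 and -0.08.

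Of the 37 repair genes, Bard1 and Nbn had more than 1 probe set. The second Nbn probe set was dim, at 5.83 and 5.96 in etoposide- and mock-treated p63 cells and 6.23 and 5.89 in GFP cells. It gave etoposide differences of -0.14 in p63 cells and 0.34 in GFP cells, where the brighter one gave -0.07 and -0.30. The probe sets of Bard1 not used gave differences between -0.29 and -0.10 in both lines, where the one used gave 0.01 in p63 cells and -0.04 in GFP cells.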
